A study of Mus musculus with 6 samples.

Results

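The genes described here are 39 genes that hepatoblasts, the epithelial precursors of the fetal liver, are known for. They were chosen by gene name: plasma proteins, clotting factors, liver transcription factors, keratins and imprinted growth genes, of 26014 genes in the deposited table. All 39 names were found, each in 1 row, and 35 had a mean of at least 1 FPKM over the libraries and entered the test. FPKM are fragments scaled to exon length and to the fragments of the library, so that levels of different genes can be set side by side. Total RNA came from fetal livers of mice at embryonic day 14.5, all untreated: 3 wild-type libraries (WT) and 3 with a knockout of the 3′ UTR of Gata1, the erythroid transcription factor (KO). The study asked which genes and pathways differ when red cells form in the fetus. The sources used here give neither the extent of the deletion, nor the strain or sex, nor whether an embryo or a pool gave each library. P-values therefore set a group difference against the spread among these libraries only, part of which may be technical.

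In the fetal liver, blood-forming cells fill an organ whose own epithelium is still immature. Hepatoblasts secrete carrier proteins, lipoproteins and clotting factors into the fetal plasma under a network of transcription factors that includes HNF4A, FOXA proteins and C/EBP alpha, and they later give rise to hepatocytes and bile duct cells. Their RNA is a minor part of a whole fetal liver.

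The labelled cell type is Embryonic hepatocyte, with no sort stated, but blood transcripts were abundant. Globin genes took 22.4% to 29.6% of the summed FPKM of a library, and the 39 hepatoblast genes together took 0.166% to 0.875%. Albumin and alpha-fetoprotein, the defining hepatoblast products, were nonetheless well above background in every library. Bile duct genes were low, and Sox9, a bile duct transcription factor, was listed at 0 in 4 libraries and at most at 0.0769 FPKM. The depth was about 14800000 to 16200000 fragments per library, so that 3 fragments on a gene with 1 kb of exons gave 0.185 to 0.202 FPKM, a floor for counting error only. Gata1 itself had 143, 142 and 166 FPKM in WT and 67.2, 67.7 and 68.2 FPKM in KO, where every value was below those of WT. The knockout is in the 3′ UTR of this gene, and its FPKM are scaled to exon length with the UTR. Lost exon bases and fewer transcripts therefore cannot be told apart in these values. In such bulk RNA, fewer cells of a type and less RNA per cell cannot be told apart.

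None of the 35 tested hepatoblast genes passed the test between KO and WT (limma on log2 of FPKM + 1, Benjamini-Hochberg over all 11142 tested genes, threshold 0.05). Of all tested genes 9.55% passed, 5.93% with higher and 3.62% with lower values in KO, so that 62.1% of the genes that passed were higher, against 32.7% with median-of-ratios and 85.3% with TPM scaling. The smallest adjusted p among the hepatoblast genes was 0.35 (limma, Foxa3), and 0 of 35 had an unadjusted p under 0.05, against 28.7% of all tested genes. Log2 fold changes ran from -0.0013 for Cebpa to 0.46 for Igf2, with a median of 0.29 beside 0.09 for all tested genes. Positive values were found in 34 of 35 (33 with median-of-ratios scaling, 35 with TPM scaling), against 71.4% of all tested genes. Groups did not overlap for 0 of 35 hepatoblast genes, against 35.6% of all tested genes. The difference between the groups was small beside the spread among the wild-type libraries.

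**Figure D1:**
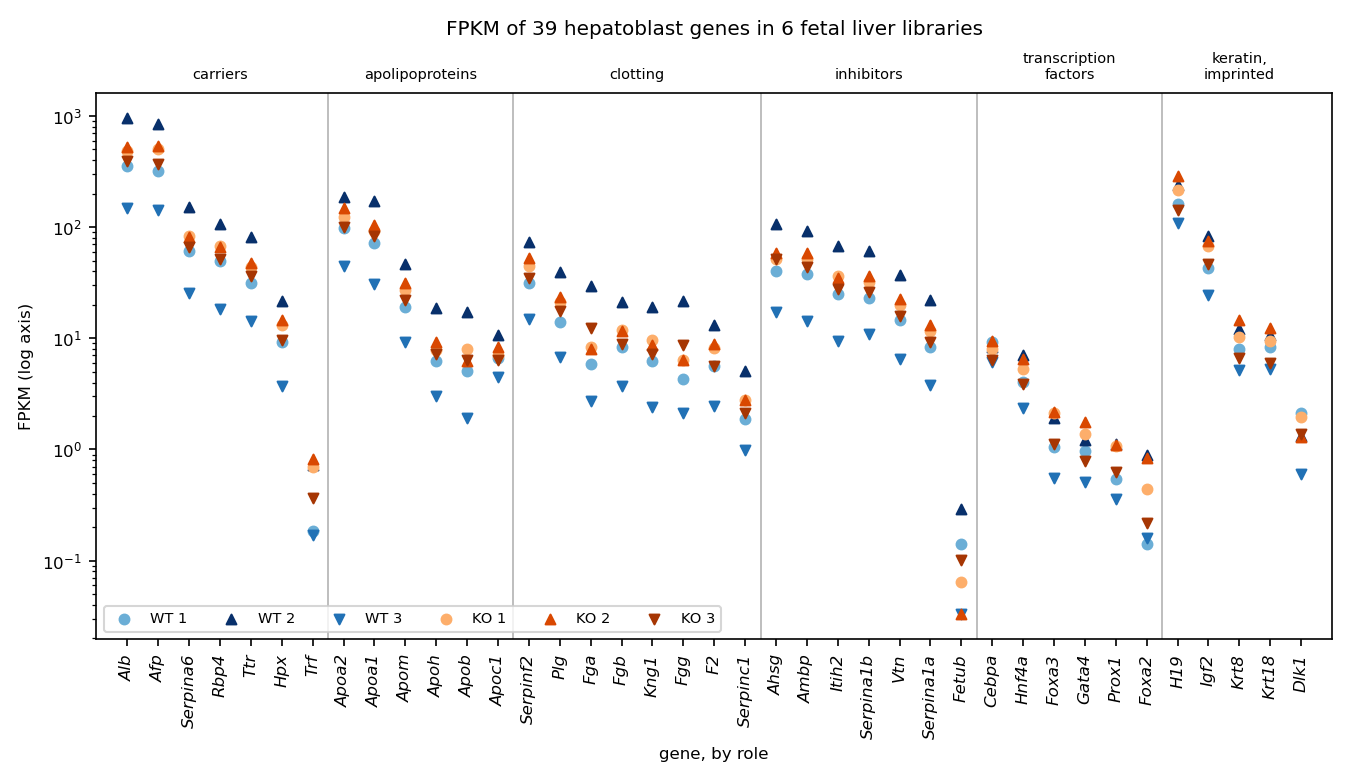
FPKM (log axis) of each of the 39 hepatoblast genes, grouped by role, with 1 symbol per library (blue for WT, orange for KO). WT replicate 3 is the lowest of the 6 libraries and WT replicate 2 the highest for the secreted proteins with a mean of at least 1 FPKM, and the KO libraries lie between them.

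Short promoter windows are shown for 6 of the plasma protein genes, since these genes shared their highest and lowest library and HNF1 proteins are known activators of liver promoters. RefSeq promoter windows (GRCm38.p6, 250 bases before to 50 bases after a start) were held for 31 of the 39 genes, 41 windows in all. A core of the HNF1 motif, spelled GTTAAT and searched on both strands, was in a window of 10 of these 31 genes (32.3%) and in one of 8.24% of all 27025 genes with a window. It does not overlap with the other motifs searched. Capitals mark this core or its reverse complement in 25 bases read along the gene's strand.
Alb: gtaagtatgGTTAATgatctacagt
Afp: ccctgctctGTTAATtattggcaaa
Serpina1a: gtgacattgGTTAATattcactagc
Serpina1b: gtgacattgGTTAATattcactagc
Fga: agggtgatgATTAACctcctgccgg
Fgb: atgtcaaatATTAACtaaagggagg
The Alb window lies at chr5:90460829-90460853 and the Afp window at chr5:90490600-90490624, both on the plus strand. The windows of Serpina1a and Serpina1b, at chr12:103863625-103863649 and chr12:103738200-103738224 on the minus strand, read the same. Fga has its window at chr3:83026101-83026125 on the plus strand and Fgb at chr3:83049877-83049901 on the minus strand. The other genes with this core were F2, Vtn, Hnf4a and Foxa2. An HNF4 motif spelled AAAGTCC was found in 1 of the 31 genes, Apoa2, and in 4.84% of all genes. A C/EBP motif spelled TTGCGCA was found in Fgg alone of the 31, and in 2.32% of all genes. These are matches of letters only, and binding of a factor to them was not measured here.

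Carrier proteins of the plasma came first by level. Alb (ENSMUSG00000029368, chromosome 5, 90460897 to 90476602, plus strand) encodes albumin, the main carrier of the plasma. It stood at 354, 964 and 149 FPKM in WT and at 482, 523 and 393 FPKM in KO. Its neighbour Afp, alpha-fetoprotein, the albumin-like carrier of fetal plasma, had 317, 841 and 141 FPKM in WT and 500, 531 and 370 FPKM in KO. In both genes every KO value lay between the WT extremes. The means were 489 ± 424 FPKM in WT and 466 ± 66.6 in KO for Alb (SD, n = 3 each), a ratio of 0.954, whereas the log2 fold change of FPKM + 1 was 0.32 (SE 0.60, limma, adjusted p = 0.75). The raw and the log means thus put the groups in opposite order. The 95% interval of the log2 fold change of Alb, from -1.11 to 1.75, holds falls and rises of more than 2-fold.

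Serpina6, the corticosteroid carrier of the plasma, Rbp4, which carries retinol, Ttr, which carries thyroid hormone and RBP4, and Hpx, which binds free haem, were likewise highest in WT replicate 2 and lowest in WT replicate 3. Ttr stood at 31.2, 81.0 and 14.3 FPKM in WT and at 44.2, 47.6 and 36.6 in KO. Hpx had 9.27, 21.6 and 3.72 FPKM in WT and 13.3, 14.7 and 9.56 in KO. For the 6 tested carriers WT replicate 2 was 5.67 to 6.48 times as high as WT replicate 3, while the highest KO library was 1.26 to 1.54 times the lowest. Trf, transferrin, the iron carrier of plasma, was the exception in level, with 0.183, 0.724 and 0.170 FPKM in WT and 0.690, 0.824 and 0.366 in KO, and it was not tested. These values correspond to 9 to 43 fragments per library. A readthrough gene on the same strand, Gm20425, covers 63.5% of the exon bases of Trf in GENCODE M21 and is not analysed here. The sources used here do not say how fragments shared by overlapping genes were counted, so the level of Trf is uncertain.

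Apolipoproteins, the protein parts of lipoproteins, held both strong and weak movers. Apoa1, the main protein of HDL, had 71.8, 170 and 30.9 FPKM in WT and 92.1, 105 and 82.8 in KO. Apob, the scaffold of VLDL and LDL, had 5.11, 17.2 and 1.899 FPKM in WT and 8.05, 6.20 and 6.39 in KO, so that WT replicate 2 was 9.05 times WT replicate 3. Apoc1, a small exchangeable apolipoprotein, had 6.62, 10.7 and 4.47 FPKM in WT and 7.07, 8.38 and 6.36 in KO. Its ratio of 2.39 between those WT libraries was the smallest of the 26 tested plasma protein genes. Apoa2, Apom and Apoh, proteins of HDL or of phospholipid binding, lay in between at 4.22, 4.93 and 6.12. Apoh overlaps exons of Prkca on the other strand, and no source used here says whether strand was used in counting. None of the 6 passed, with log2 fold changes from 0.06 to 0.37 and adjusted p of at least 0.63 (limma).

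Genes of clotting and its limits included the pair of genes with the widest spread. F2, prothrombin, had 5.58, 13.2 and 2.44 FPKM in WT and 8.19, 8.93 and 5.65 in KO. Plg, plasminogen, which dissolves clots when activated, was 5.73 times and Kng1, kininogen, the precursor of bradykinin, 7.84 times as high in WT replicate 2 as in WT replicate 3. Serpinc1, antithrombin, was at 5.09 times and Serpinf2, the inhibitor of plasmin, at 4.94 times. Plg and Serpinc1 overlap exons of genes on the other strand, Slc22a3 and Zbtb37. Log2 fold changes of the 8 genes lay between 0.13 and 0.40, and none passed (limma, smallest adjusted p = 0.63).

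The 3 fibrinogen chains are made from neighbouring genes on chromosome 3 and assemble into 1 protein, but they did not keep 1 ratio. Fga, the alpha chain, had 5.92, 29.6 and 2.75 FPKM in WT and 8.39, 7.99 and 12.5 in KO. Fgb, the beta chain, had 8.27, 21.1 and 3.70 FPKM in WT and 11.8, 11.6 and 8.88 in KO. Fgg, the gamma chain, had 4.29, 21.8 and 2.13 FPKM in WT and 6.39, 6.32 and 8.74 in KO. Fga and Fgg were highest of the KO libraries in KO replicate 3, where Fgb was lowest. The ratio of Fga to Fgb was 1.41 in WT replicate 2 and 1.40 in KO replicate 3, against 0.716, 0.743, 0.713 and 0.686 in WT replicates 1 and 3 and KO replicates 1 and 2. The ratio of Fgg to Fgb was 1.04 and 0.984 in the same pair of libraries and 0.518 to 0.574 in the other 4. Between Fga and Fgg the ratio stayed at 1.26 to 1.42 in all 6 libraries, and between Fgb and Alb the highest library was 1.14 times the lowest. These ratios were chosen after the values were seen. They rest on 131.9 to 1446.5 fragments per library for Fga, 224.9 to 1301.6 for Fgb and 71 to 740.8 for Fgg, estimated from the values. The ratio of Fga to Fgb was 0.955 ± 0.391 in WT and 0.934 ± 0.406 in KO (SD, n = 3 each), so it varied between libraries of each group and not between the group means. Fgg overlaps exons of an unnamed gene model on the other strand, Gm30097, which is not analysed here.

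**Figure D2:**
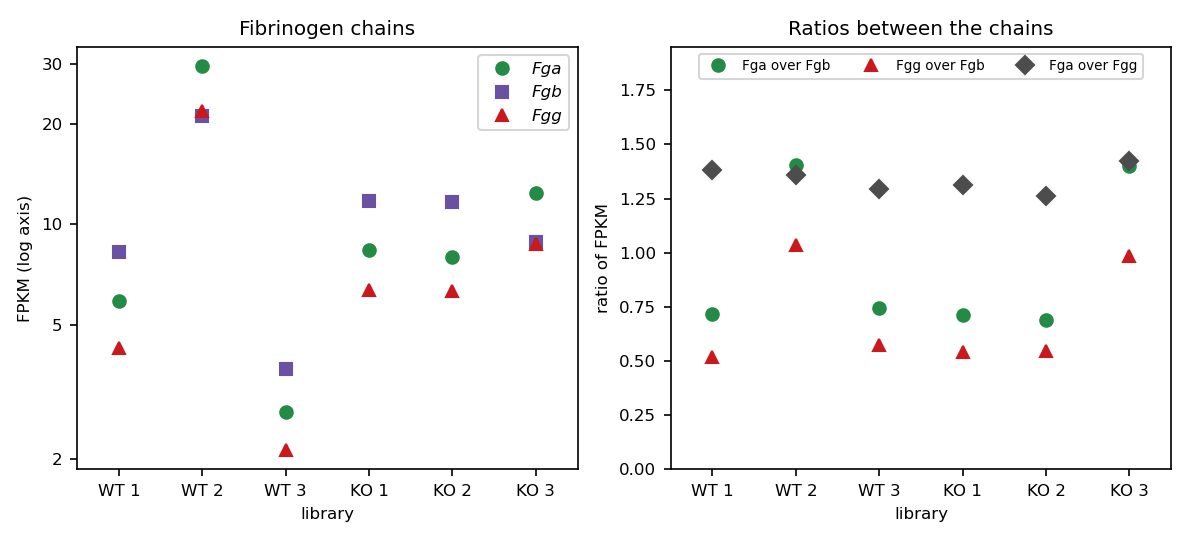
FPKM of the fibrinogen chains (left, log axis) and ratios between them (right, from 0) in each library, 1 symbol per chain or ratio. Fga and Fgg are high against Fgb in WT replicate 2 and KO replicate 3, with ratios of Fga to Fgb of 1.41 and 1.40, while Fga over Fgg stays between 1.26 and 1.42.

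Protease inhibitors, fetuins and matrix proteins behaved like the carriers. Serpina1b, an alpha-1-antitrypsin gene, had 23.1, 60.3 and 10.96 FPKM in WT and 31.8, 36.0 and 25.9 in KO, and Serpina1a had 8.39, 22.3 and 3.80 FPKM in WT and 11.6, 13.1 and 9.29 in KO. The ratio of Serpina1a to Serpina1b was 0.347 to 0.369 in all libraries. Both belong to a mouse family of near-identical copies, which can share fragments, so their single levels are uncertain. Further copies named after their values were seen, Serpina1d and Serpina1e, reached 11.6 and 15.8 FPKM in WT replicate 2. Ahsg, fetuin A, a carrier of calcium phosphate, had 40.4, 108 and 17.1 FPKM in WT and 51.1, 58.7 and 51.9 in KO, with the narrowest KO range of the 35 tested genes (highest 1.15 times the lowest). Ambp, the precursor of alpha-1-microglobulin and bikunin, Itih2, a heavy chain that binds hyaluronan, and Vtn, vitronectin, a cell adhesion protein of plasma, were 6.39, 7.17 and 5.65 times as high in WT replicate 2 as in WT replicate 3. Fetub, fetuin B, had 0.0328 to 0.290 FPKM, 1 to 9.2 fragments per library, and was not tested. None of the 6 tested genes passed (limma, smallest adjusted p = 0.65).

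The tested transcription factors and structural genes differed less at the median between WT replicates 2 and 3 (2.31 times) than the tested plasma proteins did (5.77 times), and the ranges overlapped. Hnf4a, a nuclear receptor needed for hepatocyte identity, had 4.05, 7.01 and 2.38 FPKM in WT and 5.33, 6.49 and 3.84 in KO. Cebpa, a factor of hepatocytes that myeloid cells also use, had 9.31, 8.38 and 6.16 FPKM in WT and 7.98, 9.48 and 6.33 in KO. It was the gene with the smallest ratio between WT replicates 2 and 3, 1.36, and the only tested gene of the 35 with a negative log2 fold change, a sign that turned to 0.11 with TPM scaling. Gata4, a zinc finger factor of early liver and of its mesenchyme, had 0.967, 1.22 and 0.514 FPKM in WT and 1.38, 1.78 and 0.786 in KO. Foxa3, a winged helix factor of liver genes, had 1.06, 1.91 and 0.554 FPKM in WT and 2.13, 2.19 and 1.13 in KO. It was the nearest of the 35 to the threshold, with a log2 fold change of 0.40 (SE 0.26) and a 95% interval from -0.22 to 1.01 (limma, adjusted p = 0.35). Foxa2 and Prox1, factors of endoderm and of hepatoblast migration, were under 1 FPKM on average. They ranged from 0.142 to 0.885 FPKM and from 0.359 to 1.12 FPKM and were not tested. The limit of 1 FPKM applied to the mean over the libraries, so single values could lie across it. Prox1 (mean 0.804 FPKM) reached 1.12 FPKM in WT replicate 2, and Serpinc1 (mean 2.62 FPKM) fell to 0.998 FPKM in WT replicate 3.

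Krt8 and Krt18, the keratin pair of simple epithelia, Dlk1, a surface protein of hepatoblasts, and the imprinted genes Igf2 and H19 did not share a highest library. Krt18 stood at 8.43, 10.7 and 5.28 FPKM in WT and at 9.46, 12.4 and 6.03 in KO. H19, a long noncoding RNA and the third most abundant of the 39, had 161, 240 and 108 FPKM in WT and 217, 287 and 144 in KO. Igf2, a fetal growth factor from the neighbouring imprinted gene, had 42.5, 83.5 and 24.7 FPKM in WT and 66.9, 75.5 and 46.6 in KO. WT replicate 2 was the highest library for Igf2. KO replicate 2 was the highest for Krt8, Krt18 and H19, and also for Foxa3, Cebpa and Gata4. Dlk1 was low, with 2.11, 1.33 and 0.599 FPKM in WT and 1.96, 1.30 and 1.39 in KO, and WT replicate 1 was its highest library. Log2 fold changes of these 5 genes were 0.16 to 0.46, and none passed (limma, smallest adjusted p = 0.49). Igf2 shares 62.8% of its exon bases with a gene model on the same strand, Gm49394, that is not analysed here, and H19 holds Mir675 within its exons.

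The spread within a group was set against the group difference for each tested gene. On the log2(FPKM + 1) scale the range among the 3 WT libraries exceeded the difference of the group means in 35 of 35 genes, against 69.4% of all tested genes. The median WT range was 2.28, beside 0.23 for all tested genes, and it reached 3.03 for Fga. The range among the 3 KO libraries exceeded the difference in 31 of 35, against 52.6% of all tested genes, with a median of 0.45 beside 0.14. WT ranges were wider than KO ranges in 33 of 35 genes, against 70.9% of all tested genes. The exceptions were Gata4 and Krt18. Without WT replicate 2 the WT range exceeded the difference in 26 of 35. The median log2 fold change became 0.91, beside 0.12 for all tested genes. Then 27 of 35 had an unadjusted p under 0.05 (limma), and the share of all tested genes was not computed for this setting. None passed adjusted (limma, smallest adjusted p = 0.061), while 736 of all 11152 genes passed as higher and 395 as lower. WT replicate 2 was the highest library in 28 of 35, so these genes are not independent of each other. Without WT replicate 3 the median log2 fold change was -0.21. The sign of the median group difference thus differed with which WT library was left out.

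**Figure D3:**
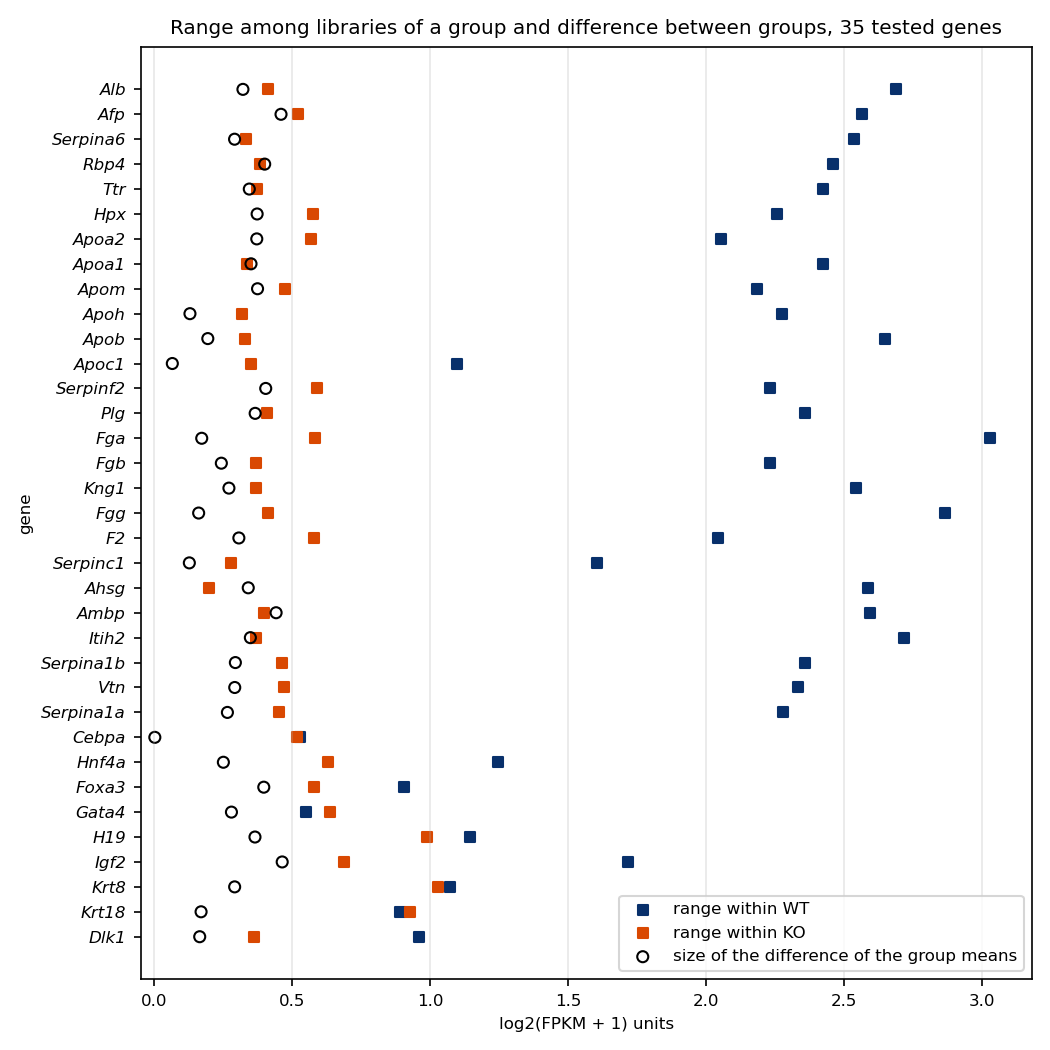
For each of the 35 tested genes, the range of log2(FPKM + 1) among the WT libraries (blue squares), among the KO libraries (orange squares) and the size of the difference of the group means (open circles). The WT range lies to the right of the difference in 35 of 35 genes and reaches 3.03 for Fga.

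**Figure D4:**
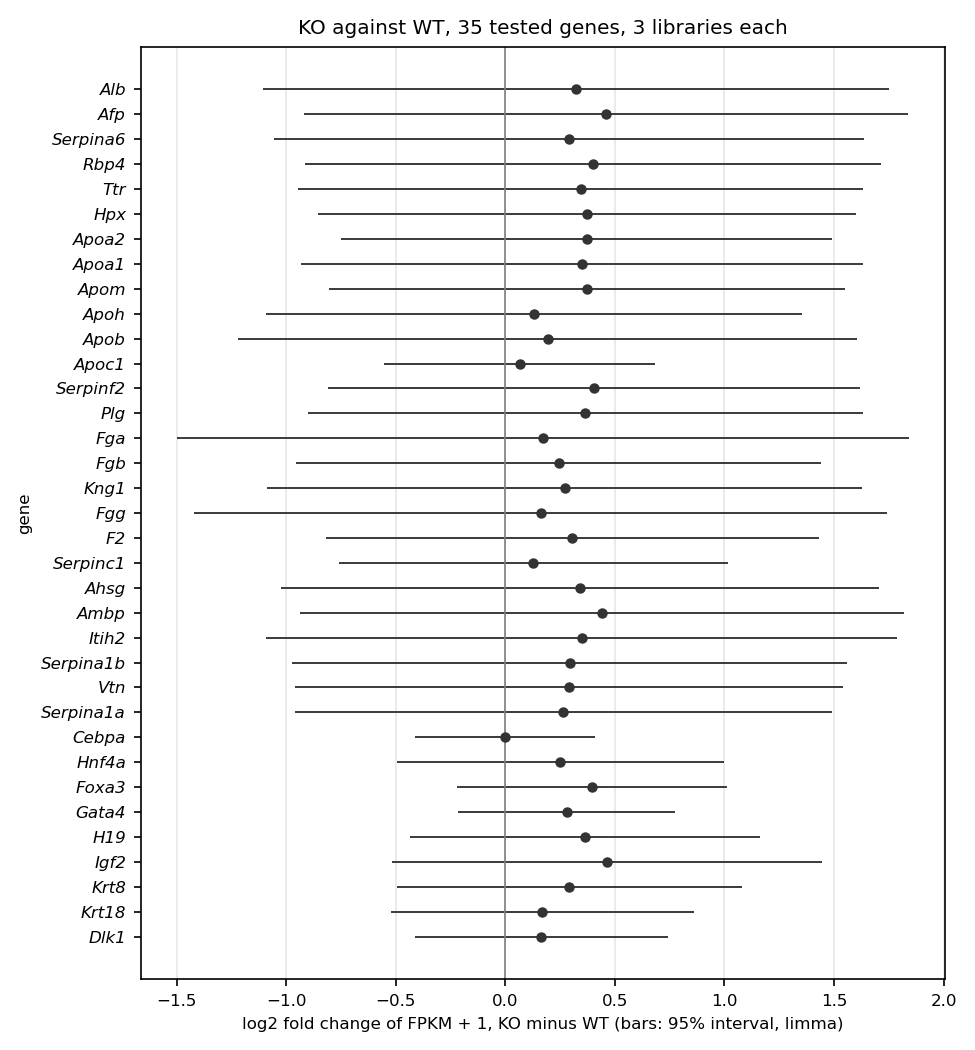
Log2 fold change of FPKM + 1, KO minus WT, for the 35 tested genes with 95% intervals from limma (3 libraries per group). Every interval spans 0, and the points lie between -0.0013 and 0.46.

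The highest and the lowest library were the same for the 26 tested plasma protein genes, while the order of the libraries between them differed from gene to gene. WT replicate 3 was the lowest library in 35 of 35 tested genes, against 35.9% of all tested genes. WT replicate 2 was the highest in 28 of 35, against 17.9%, and these were the 26 plasma protein genes with Hnf4a and Igf2. KO replicate 2 was highest in 6, against 19.6%. The ratio between WT replicates 2 and 3 had a median of 5.77 over the 26 plasma protein genes (range 2.39 to 10.8) and of 2.31 over the 9 other genes (range 1.36 to 3.44), beside 1.06 for all tested genes. A ratio of at least 4 was found in 113 of the 11142 tested genes, 25 of them among the 35. Within KO the other genes spread more: the highest library was 1.33 times the lowest at the median for the plasma protein genes and 1.93 times for the other 9. KO replicate 2 stood at 1.31 times KO replicate 3 for the plasma protein genes and at 1.93 times for the other genes, at the median.

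**Figure D5:**
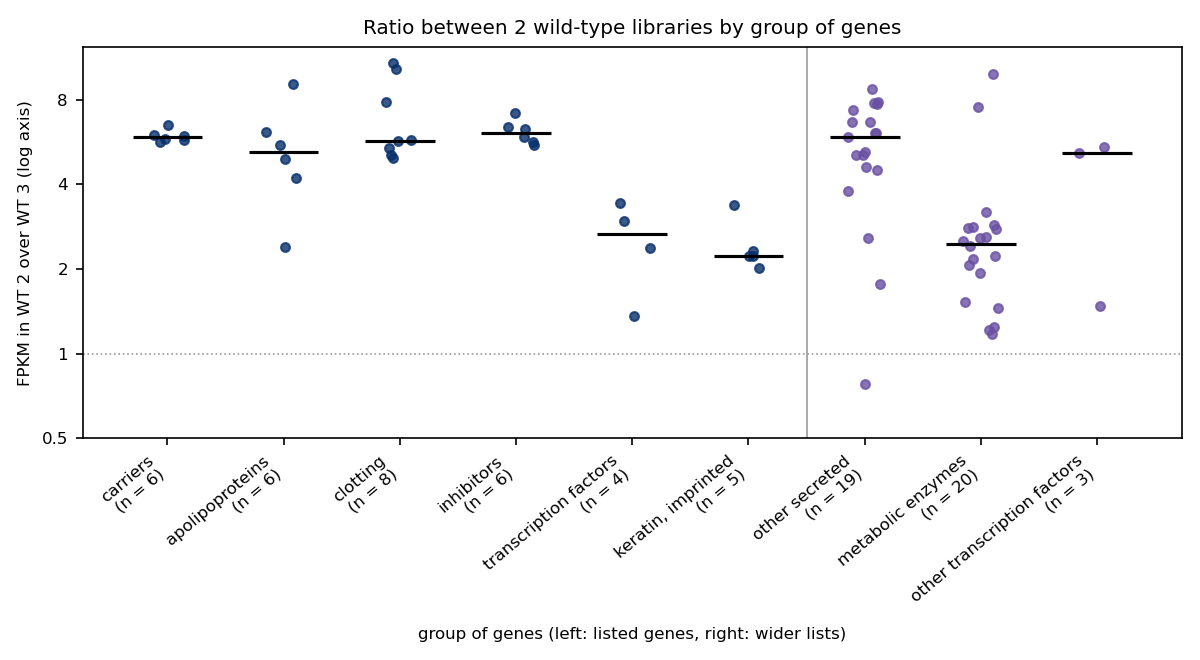
Ratio of FPKM in WT replicate 2 to WT replicate 3 (log axis) for each tested gene, by role (left, blue) and for the wider liver lists (right, purple), with the median as a bar. Plasma protein genes lie mostly between 4 and 11, while the listed transcription factors, keratins and imprinted genes (left) and all metabolic enzymes but 2 lie below 4, and 2 of the 3 other transcription factors (right) lie above it.

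Levels relative to the mean of the 35 genes in the same library describe how closely each gene followed that mean. Each gene is part of the mean, and 26 of the 35 are plasma protein genes. Closeness to it therefore depends in part on the make-up of the list. On the log2 scale Apom, Serpinf2, F2, Apoa1 and Serpina1b stayed within 0.15, 0.19, 0.22, 0.23 and 0.23 over the 6 libraries. The widest relative ranges were those of Dlk1 at 1.82, Cebpa at 1.79, Fga at 1.31, Krt18 at 1.22 and Fgg at 1.20. The ratio of H19 to Alb went from 0.249 in WT replicate 2 to 0.727 in WT replicate 3, and that of Krt18 to Alb from 0.0111 to 0.0356. In KO the ratio of H19 to Alb was 0.366 to 0.548. Alb and Afp themselves kept a ratio of 0.964 to 1.15.

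Wider lists of liver genes that hold none of the 39 also held no gene that passed. Of 39 other secreted proteins 37 were found by name and 19 were tested. None passed, with 18 positive log2 fold changes and a median of 0.24 (limma, smallest adjusted p = 0.21). Serpind1, heparin cofactor II, had 7.20, 19.4 and 3.29 FPKM in WT and 11.3, 9.61 and 8.99 in KO. C3, the central complement protein, had 28.01, 43.0 and 16.7 FPKM in WT and 31.5, 33.5 and 26.6 in KO. Hp, haptoglobin, which neutrophil precursors also make, had 38.4, 26.2 and 33.6 FPKM in WT and 38.3, 39.9 and 31.2 in KO, and was the only tested secreted gene not lowest in WT replicate 3. The median ratio between WT replicates 2 and 3 was 5.91 in this list.

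Metabolic enzymes and transporters moved less. Of 36 listed 20 were tested and none passed, with a median log2 fold change of 0.15 (limma, smallest adjusted p = 0.12), and 2 had an unadjusted p under 0.05. Their median ratio between WT replicates 2 and 3 was 2.46. Gstm1, a glutathione transferase, had 26.9, 27.5 and 18.99 FPKM in WT and 28.8, 33.1 and 20.4 in KO. Fabp1, the fatty acid binding protein of liver, had 12.7, 18.3 and 7.60 FPKM in WT and 12.2, 19.5 and 9.37 in KO. Ass1, a urea cycle enzyme, had 15.0, 17.0 and 11.2 FPKM in WT and 14.2, 15.9 and 12.7 in KO. KO replicate 2 was the highest library for 8 of the 20 and WT replicate 2 for 11. Of 17 other liver transcription factors 3 were tested and none passed (limma, smallest adjusted p = 0.33). They were Hhex, a homeobox factor of the liver bud, Creb3l3, a factor of lipid and acute phase genes, and Mlxipl, which responds to glucose. Creb3l3 and Mlxipl had ratios of 5.18 and 5.43 between WT replicates 2 and 3, and Hhex had 1.48. Of 8 bile duct genes 2 were tested and none passed (limma, smallest adjusted p = 0.65). Cdh1, E-cadherin, had 1.73, 4.004 and 1.01 FPKM in WT and 2.15, 2.22 and 1.55 in KO.

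Markers of other cells moved with these libraries in part. Summed over 8 endothelial markers, WT replicate 3 had 11.8 FPKM, the other WT libraries 22.9 and 29.5, and the KO libraries 21.3 to 32.8. Of these markers 7 were tested and none passed. Summed over 8 megakaryocyte and platelet markers it had 198 FPKM, the other WT libraries 323 and 391, and the KO libraries 413 to 745, with 5 of 8 higher in KO (background 5.93%). Over 9 stellate and mesenchymal markers it had 4.34 FPKM, the other WT libraries 7.40 and 7.39, and the KO libraries 10.99 to 22.3. Of these 4 were tested and Reln was higher in KO. Over 6 mesothelial markers WT replicate 3 was not the lowest, with 14.4 FPKM against 13.04 and 18.05 in the other WT libraries and 27.7 to 30.6 in KO. Nearly all of this sum was Podxl, with 12.8, 17.9 and 14.3 FPKM in WT and 30.2, 26.8 and 28.9 in KO. No other marker of this list was above 0.450 FPKM (Upk3b, KO replicate 2), so the sum describes Podxl and not the list. Podxl, the 1 tested, was higher in KO (limma, adjusted p = 0.009, background 5.93%). Over 10 macrophage markers it had 68.1 FPKM, the other WT libraries 101 and 121, and the KO libraries 69.2 to 109. The 11 erythroid markers summed to 115903 to 132595 FPKM in WT and 92504 to 101097 in KO, with WT replicate 2 lowest of the WT libraries, and 6 of 11 were lower in KO (background 3.62%). Over 9 neutrophil markers WT replicate 2 had 1364 FPKM, the lowest of all libraries, against 1665 to 2223 in the others. None of these markers except some of the mesothelial and bile duct genes was at 0 in any library. The part of these cell types in the hepatoblast values was not tested.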

How the data were processed

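RNA was extracted with TRIzol, and libraries were sequenced from both ends, per the labels' protocols. Values are the authors' FPKM, deposited in a single table. The sources used here name no aligner, counting program, genome build or strand setting. GENCODE M21 holds 99.7% of the 26014 identifiers, 23607 of them at equal positions, so coordinates are given as GRCm38. With merged exon lengths from that annotation 94.6% to 95.1% of low values were whole fragments within 0.02, which gave the depth. Of 26022 lines after the header, 7 with spilled text and 1 empty one were left out. C5, Apoa4 and Ahsp of the wider lists were not found under these names, and rows under other names were not counted in the lists.

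Groups were compared two-sided with limma 3.58.1 under R 4.3.3 (eBayes on lmFit, trend allowed) on log2(FPKM + 1), a scale that understates the change of low genes, over the 11142 genes with a mean of at least 1 FPKM, without a replicate block. P-values were Benjamini-Hochberg adjusted over all of them. An exact permutation test of 1 gene cannot go below p = 0.1 with 3 against 3. The script was tested on simulated data. Python 3.11.15, pandas 2.3.3, numpy 2.4.6 and matplotlib 3.10.9 did the rest.

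Genes named were all 39 and, of the wider lists, those that passed or else the 3 most abundant, and some genes that this rule takes are not reported here. The gene list, the wider lists and the tests were chosen with earlier results of these data known. Alternatives changed scaling, pseudocount, filter, weights, prior, a covariate, a replicate block and each library. Groups of 3 are too small for a check for outlying samples.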

Additional observations from a re-analysis of the deposited data

How the results depend on the processing

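None of the 35 tested hepatoblast genes passed under 15 of the 16 alternatives, the exception being the replicate block. Deviations from the group mean correlated at -0.10, 0.01 and 0.26 between WT and KO libraries of equal number. Pairs of unequal number ran from -0.19 to 0.18. The labels do not say whether equal numbers share a litter or a day, and so few correlations cannot decide it. With the replicate block 1 of 35 hepatoblast genes passed, H19 (limma, log2 fold change 0.36, adjusted p = 0.0268). So did 2 of 20 metabolic genes, Fah and Pygl, which were chosen after their values were seen. Of all 11142 tested genes 686 passed as higher and 386 as lower with the block. Leaving out 1 library gave 0 to 1 metabolic and 0 to 2 other secreted genes past the threshold, all without WT replicate 2. The secreted ones were Itih4 and Serping1. In that setting 736 of all 11152 tested genes passed as higher and 395 as lower. The median log2 fold change of 0.29 was 0.20 with median-of-ratios scaling, 0.41 with TPM scaling, 0.34 with non-globin scaling and -0.01 with the mean level of the other secreted proteins as a covariate, and -0.21 to 0.91 with 1 library left out. The median over all tested genes was 0.094, and it moved to -0.0057 with median-of-ratios scaling, to 0.20 with TPM scaling and to 0.13 when globins were left out of the total.

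With the covariate 18 genes changed sign, with log2 fold changes of -0.044 for Ahsg, -0.084 for Alb, -0.012 for Apoa1, -0.20 for Apob, -0.10 for Apoc1, -0.22 for Apoh, -0.0078 for F2, -0.27 for Fga, -0.10 for Fgb, -0.27 for Fgg, -0.060 for Itih2, -0.11 for Kng1, -0.082 for Serpina1a, -0.065 for Serpina1b, -0.090 for Serpina6, -0.12 for Serpinc1, -0.022 for Ttr and -0.063 for Vtn. Apoc1 was at -0.036 with median-of-ratios scaling, and Cebpa at 0.11, 0.038 and 0.037 with TPM scaling, non-globin scaling and library weights. With 1 library left out 30 genes changed sign, 29 of them without WT replicate 3. Their log2 fold changes ran from -0.16 to 1.12 for Afp, -0.29 to 1.003 for Ahsg, -0.33 to 1.010 for Alb, -0.21 to 1.08 for Ambp, -0.25 to 0.96 for Apoa1, -0.16 to 0.87 for Apoa2, -0.43 to 0.90 for Apob, -0.20 to 0.35 for Apoc1, -0.39 to 0.75 for Apoh and -0.15 to 0.94 for Apom. They ran from -0.15 to 0.13 for Cebpa, -0.087 to 0.39 for Dlk1, -0.19 to 0.83 for F2, -0.48 to 1.03 for Fga, -0.29 to 0.82 for Fgb, -0.44 to 0.990 for Fgg, -0.055 to 0.57 for Hnf4a, -0.19 to 0.94 for Hpx, -0.32 to 1.04 for Itih2 and -0.33 to 0.94 for Kng1. For the rest they ran from -0.077 to 0.42 for Krt18, -0.19 to 0.994 for Plg, -0.24 to 0.991 for Rbp4, -0.28 to 0.86 for Serpina1a, -0.27 to 0.91 for Serpina1b, -0.34 to 0.93 for Serpina6, -0.23 to 0.57 for Serpinc1, -0.14 to 0.98 for Serpinf2, -0.24 to 0.97 for Ttr and -0.27 to 0.89 for Vtn. The cause was not tested. Depth limits Trf, Foxa2 and Fetub, which rested on 1 to 43 fragments per library.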

Other observations

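Enzymes that mature hepatocytes are known for were at or near the floor. Of 36 listed metabolic genes 16 were under a mean of 1 FPKM. Cps1, the first enzyme of the urea cycle, had 0.0226 to 0.144 FPKM. G6pc, the last step of glucose release, was listed at 0 in 5 of 6 libraries, and Tat, a tyrosine enzyme that appears around birth, in 3 of 6. Ugt1a1, which conjugates bilirubin, was at most 0.0303 FPKM. The urea cycle enzyme Ass1 stood at 11.2 to 17.0 FPKM in the same libraries. The genes named here were chosen after their values were seen.

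Of the 113 tested genes that were at least 4 times as high in WT replicate 2 as in WT replicate 3, 25 were hepatoblast genes listed above. Among those outside that list, Slc38a4, an amino acid transporter of the cell membrane, had a ratio of 7.505 and Cyp2d26, a membrane-bound cytochrome P450 of the endoplasmic reticulum, 9.84. For Cyp2d26 this rests on 65.3 fragments in WT replicate 2 and 6.5 in WT replicate 3, at 0.229 FPKM and near the floor, so its size is uncertain. Cpb2, a carboxypeptidase that slows clot lysis, had 2.88, 9.38 and 1.19 FPKM in WT and 3.36, 3.76 and 4.08 in KO, where KO replicate 3 was again the highest of its group. These 3 genes were chosen after their values were seen.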
